A study of Homo sapiens with 12 samples.

Results

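The ATF4 amino acid and stress response was followed through 10 genes, ATF4, DDIT3, CHAC1, TRIB3, ASNS, PPP1R15A, SESN2, PSAT1, PHGDH and SLC7A11. Every probe set that the array's annotation pairs with 1 of these symbols was taken, which gave 17 probe sets of 54675. One further probe set, annotated to PHGDH and other genes together, was left out. Of the 17 probe sets, 15 lay above the median of their array on at least 2 of the 12 arrays and were tested. All 10 genes kept at least 1 tested probe set, among 15052 genes tested. The 2 probe sets that were not tested belong to TRIB3 and ASNS. The rule takes genes by symbol and uses no measured value, although the members were chosen with earlier results of these data known.

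The arrays measured myeloma cells of 3 human lines that stably carry green fluorescent protein. In the coculture groups they had spent 24 hours beside unlabelled HS-5 cells, a stromal line from human bone marrow, and were then recovered by sorting on fluorescence. In the other groups the same lines were kept alone for the same time. MM.1S is a dexamethasone-sensitive myeloma line, MM.1R is a resistant line of the same origin, and INA-6 is a myeloma line known to depend on interleukin 6. Each of the 6 groups (MM.1S coculture, MM.1R coculture, INA-6 coculture, MM.1S alone, MM.1R alone and INA-6 alone) had 2 arrays, which are technical replicates per the design text. HS-5 cells by themselves were not analysed here. Every group carried the fluorescent label, and coculture was made with 1 stromal line only.

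ATF4 is a transcription factor whose translation rises when the initiation factor eIF2α is phosphorylated, as happens during amino acid shortage, stress of the endoplasmic reticulum, viral infection or heme lack. It then switches on genes for amino acid synthesis and import, for tRNA charging, and for feedback that ends the response. Plasma cells and myeloma cells secrete much protein and are known for a strong dependence on this and the neighbouring branches of the unfolded protein response. Because ATF4 is controlled largely at translation, its mRNA is not a measure of its activity.

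ATF4 binds with C/EBP partners to a composite element whose core is TGATGNAA, and the promoters were searched for that core. The search covered 250 bases before to 50 bases after each annotated start in RefSeq (GRCh38.p14), on both strands. The core occurred in 2 of the 9 members with a promoter in that table (22.2%), CHAC1 and ASNS, and in 1217 of the 27305 genes searched (4.46%). SLC7A11 was not in that table. Among genes of the related lists that are named further on, ATF3, SLC1A5, GOT1, AARS1 and JDP2 also had a match wholly upstream of the start, and that of CARS1 spans the start. JDP2, whose core begins 16 bases before the start, and CARS1 are not shown, since their stretches run past the start. The stretches around these matches are shown because they carry the element through which ATF4 is known to act; capitals mark the core as searched or its reverse complement, and each is written 5′ to 3′ on the strand of the gene.
CHAC1: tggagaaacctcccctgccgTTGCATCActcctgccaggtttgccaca
ASNS: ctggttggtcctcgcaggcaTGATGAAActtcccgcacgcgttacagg
ATF3: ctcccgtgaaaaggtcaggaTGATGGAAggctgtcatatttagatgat
SLC1A5: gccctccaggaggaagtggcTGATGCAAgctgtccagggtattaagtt
GOT1: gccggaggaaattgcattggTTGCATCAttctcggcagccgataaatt
AARS1: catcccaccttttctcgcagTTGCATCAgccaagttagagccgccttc

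In GRCh38.p14 the CHAC1 stretch is chr15:40953242-40953289 on the plus strand, and its core begins 209 bases before the start. The ASNS stretch is chr7:97872449-97872496 on the minus strand, with the core 68 bases before the start. ATF3 (chr1:212565196-212565243, plus strand) has its core 191 bases before the start. The SLC1A5 stretch (chr19:46784884-46784931, minus strand) has it 97 bases before the start, that of GOT1 (chr10:99430795-99430842, minus strand) 198 bases and that of AARS1 (chr16:70289666-70289713, minus strand) 187 bases. The core was present in 5 of 11 amino acid transporters (45.5%), 7 of 16 cytosolic tRNA synthetases (43.8%), 3 of 9 genes of the serine and related metabolism list (33.3%), 4 of 13 eIF2α kinases and ATF4 partners (30.8%) and 2 of 14 other ATF4 targets (14.3%). It was present in 0 of 16 genes of the ATF6 and XBP1 branch, 0 of 14 stromal markers and 0 of 10 myeloma markers. These matches describe letters in a window and were not tested for binding.

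Signs of RNA quality and of other cells differed between the groups. For the ACTB controls, the 3′ over 5′ signal ratio, higher where transcripts are shortened, averaged 5.10 in MM.1S after coculture against 22.4 alone, and 5.21 in MM.1R after coculture against 31.4 alone. In INA-6 the order was opposite, 32.0 after coculture against 5.51 alone. The summed intensity of 23 stromal markers was 21540 to 21890 in cocultured MM.1S against 1623 to 1823 alone, 36690 to 37330 in cocultured MM.1R against 2408 to 2442 alone, and 19900 to 20220 in cocultured INA-6 against 4303 to 5325 alone. At most 1 of the 23 markers lay below the array median in any coculture group, against 8 to 11 in the groups kept alone. None of 12 myeloma markers lay below it in any group. Their sums were higher after coculture in MM.1S (30060 to 30840, against 16190 to 16260 alone) and in MM.1R (30170 to 30760, against 23810 to 24640 alone). In INA-6 they were lower, 20740 to 21040 after coculture against 25960 to 26780 alone. Stromal markers as a sum thus moved with every comparison of coculture and alone, though not each of them did, and their part in the results was not tested. In such bulk samples fewer cells of a type and less RNA per cell cannot be told apart. The 2 arrays of INA-6 alone correlated at 0.839 over the genes tested, against 0.946 to 0.986 in the other groups.

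After coculture, 4 of the 10 members rose in each of the 3 lines, namely DDIT3, CHAC1, TRIB3 and PPP1R15A, and 0 fell in each line. Over all genes tested, 7.29% rose in each line and 0.797% fell in each line. Within lines, 8 members rose in MM.1S (23.9% of all genes), 7 in MM.1R (13.3%) and 4 in INA-6 (39.1%); no member fell in any line, against 8.33%, 2.76% and 13.1% of all genes. The share of members that rose in INA-6 was thus close to that of all genes on the deposited scale. After quantile normalization 6 members rose in INA-6, with ATF4 and ASNS added, against 29.9% of all genes. When the lines served as the replicates, 2 members rose, CHAC1 and PPP1R15A (3.28% of all genes), and 0 fell (0.106%). MM.1S and MM.1R share an origin, so the 3 lines are not fully independent replicates, which the p-values over the lines do not take into account. At an unadjusted p below 0.05 in the same limma fits, 5 members were higher over the lines, 9 in MM.1S, 8 in MM.1R and 5 in INA-6, and 0 were lower in any of them. Of all 15052 genes, 3381 passed that threshold over the lines, in either direction. Within lines the shares of all genes at that threshold are not given, but they cannot lie below the adjusted shares above. The median log2 change of the members was 0.88 over the lines, 1.17 in MM.1S, 1.0 in MM.1R and 0.42 in INA-6, where the medians of all genes were 0.27, 0.11, 0.09 and 0.47. Each test was a limma fit of log2(intensity + 5), called at 0.05 after Benjamini-Hochberg adjustment across the 15052 genes. The p-values within a line measure only the spread between technical duplicates, and fold changes on this scale understate those of dim probe sets.

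The counts depended on the array scaling and on the duplicates of INA-6 alone. Of all genes called, 74.2% were higher after coculture in MM.1S, 82.8% in MM.1R and 74.8% in INA-6, and after quantile normalization these shares were 58.4%, 60.6% and 61%. That normalization took the median of all genes over the lines to 0.02 and the members' median to 0.65. In INA-6 the members' median was then 0.52 against 0.17 for all genes. With the intensity trend 6 members were called in INA-6. With the mean of the probe sets 6 were called there too, but PSAT1 among them fell (-1.066). The shares of all genes called in these runs are not given, so these counts cannot be set against a background. When either array of INA-6 alone was left out, more members passed in MM.1S and in MM.1R at unchanged log2 changes. The 6 groups share 1 estimate of the spread between duplicates, so such a run alters the tests of all genes, whose shares are not given. The INA-6 change of SESN2 was then -2.04 without replicate 1 of that group, and that of PSAT1 was -0.68 without replicate 2. Fewer members were called in MM.1R without MM.1R alone replicate 2 or MM.1R coculture replicate 1.

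**Figure D1:**
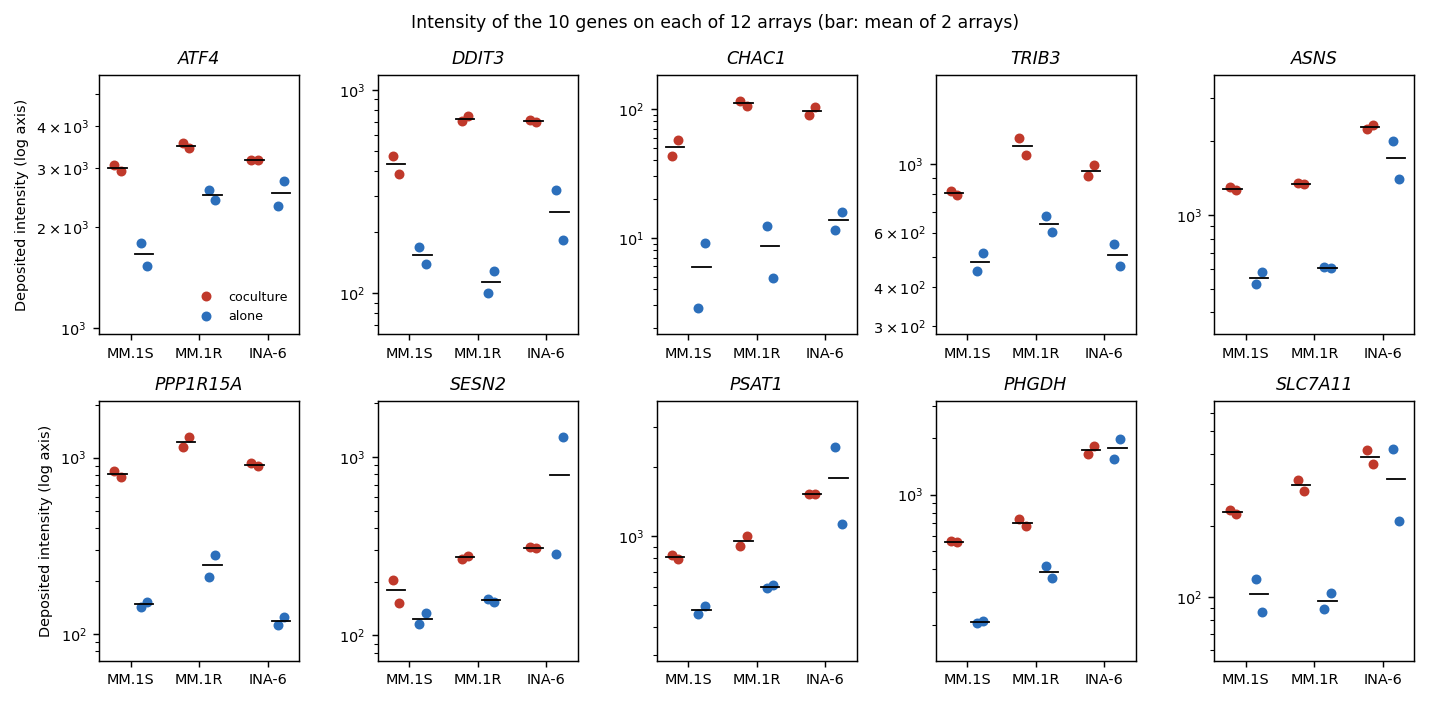
Deposited intensity (log axis) of the 10 genes on each of the 12 arrays, by line, with coculture in red left of alone in blue; each point is 1 array and each bar the mean of 2. PPP1R15A and CHAC1 show coculture arrays above every array of cells kept alone, whereas for PHGDH, PSAT1 and SESN2 the highest group is INA-6 alone.

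ATF4 itself, the activator of the set, had high intensities throughout and moved modestly. In MM.1S, ATF4 read 3060 and 2945 after coculture, against 1794 and 1535 alone. In MM.1R it read 3566 and 3445 after coculture, against 2589 and 2407 alone. In INA-6 it read 3178 and 3170 after coculture, against 2320 and 2740 alone. Coculture arrays lay above those kept alone in every line, without overlap. ATF4 rose in MM.1S (log2 change 0.85 ± 0.16 SE, adjusted p = 0.00420). The changes in MM.1R (0.49, adjusted p = 0.0772) and INA-6 (0.33, adjusted p = 0.112) did not pass, nor did that common to the lines (0.56 ± 0.38, adjusted p = 0.398). After quantile normalization the MM.1S change was 0.30 (adjusted p = 0.160) and that of INA-6 was 0.58 (adjusted p = 0.0126). Without replicate 2 of INA-6 alone the INA-6 change passed (0.45, adjusted p = 0.0181), and without either array of that group so did the MM.1R change (adjusted p = 0.00895).

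DDIT3, which encodes CHOP, a transcription factor that ATF4 induces and that favours cell death under lasting stress, rose in each line. In MM.1S, DDIT3 read 476 and 388 after coculture, against 168 and 140 alone. In MM.1R its values were 702 and 746 after coculture, against 100.3 and 128 alone. In INA-6 they were 714 and 695 after coculture, against 322 and 182 alone. All coculture arrays of a line exceeded both arrays of that line kept alone, and the lowest coculture value, in MM.1S, exceeded the highest value alone, in INA-6. The log2 change was 1.46 in MM.1S (adjusted p = 0.00461), 2.62 in MM.1R (adjusted p = 0.000523) and 1.52 in INA-6 (adjusted p = 0.00232), each ± 0.28 SE. Over the lines it was 1.87 ± 0.42 (adjusted p = 0.0594), just outside the threshold.

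PPP1R15A (GADD34), the phosphatase subunit that removes phosphate from eIF2α and so ends the response, rose in each line and over the lines. In MM.1S, PPP1R15A read 839 and 776 after coculture, against 143 and 153 alone. MM.1R gave 1149 and 1312 after coculture, against 211 and 281 alone, and INA-6 gave 931 and 896 after coculture, against 113 and 125 alone. The lowest coculture value, 776 in MM.1S, lay above the highest value alone, 281 in MM.1R. This amounted to 5.31-fold in MM.1S (adjusted p = 5.8e-05), 4.96-fold in MM.1R (adjusted p = 0.000119) and 7.43-fold in INA-6 (adjusted p = 1.5e-05). Over the lines the log2 change was 2.54 ± 0.38 SE (adjusted p = 0.0181). A second probe set, 202014_at, read 451 and 408 in cocultured MM.1S against 62.8 and 97.1 alone, 567 and 618 in cocultured MM.1R against 93.4 and 115 alone, and 387 and 407 in cocultured INA-6 against 53.4 and 29.5 alone.

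CHAC1, a γ-glutamyl cyclotransferase that breaks down glutathione and is known as an ATF4 and CHOP target, rose in each line and over the lines, and was dim in cells kept alone. In MM.1S, CHAC1 read 42.8 and 57.6 after coculture, against 2.85 and 9.11 alone. In MM.1R it read 115 and 106 after coculture, against 12.4 and 4.85 alone. In INA-6 it read 89.7 and 103 after coculture, against 11.5 and 15.9 alone. It lay above the array median on the 6 coculture arrays and on none of the 6 arrays of cells kept alone, so its level alone is only a low one. CHAC1 therefore entered the test only through the groups where it was high. With no filter on low values its change over the lines was also 2.66 (limma adjusted p = 0.0231). The log2 changes were 2.38 in MM.1S (adjusted p = 0.0014), 3.14 in MM.1R (adjusted p = 0.000757) and 2.45 in INA-6 (adjusted p = 0.000732), and 2.66 ± 0.39 SE over the lines (adjusted p = 0.017). With a pseudocount of 1 in place of 5 the common change was 3.14 (adjusted p = 0.0144), and with 20 it was 1.81 (adjusted p = 0.0446).

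TRIB3, a pseudokinase that dampens ATF4 and AKT signalling, rose in each line by a smaller amount. In MM.1S, TRIB3 read 818 and 794 after coculture, against 450 and 514 alone. Its MM.1R values were 1216 and 1070 after coculture, against 679 and 604 alone. INA-6 gave 912 and 991 after coculture, against 550 and 469 alone. The groups did not overlap in any line. The log2 changes were 0.74 (adjusted p = 0.0106), 0.83 (adjusted p = 0.0122) and 0.90 (adjusted p = 0.00261), and 0.82 ± 0.37 over the lines (adjusted p = 0.239). Leaving out MM.1S coculture replicate 1 or 2 or MM.1S alone replicate 1 lost the MM.1S call (adjusted p = 0.0734, 0.061 and 0.0664). The MM.1R call was lost without MM.1R alone replicate 2 (adjusted p = 0.101), without MM.1R coculture replicate 1 (adjusted p = 0.106), and with arrays centred on their medians (adjusted p = 0.0596).

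SESN2 encodes a stress-induced protein that restrains the growth kinase complex mTORC1, and its 2 probe sets gave unlike results. On the brighter 223195_s_at, MM.1S read 206 and 152 after coculture, against 115 and 133 alone, and MM.1R read 268 and 279 after coculture, against 160 and 154 alone. INA-6 read 314 and 308 after coculture, against 288 and 1291 alone, so that 1 of the 2 arrays kept alone stood far above all others. The log2 changes of 0.50, 0.78 and -0.96 did not pass (adjusted p = 0.564, 0.469 and 0.188). Without replicate 2 of INA-6 alone the INA-6 change was 0.11 (adjusted p = 0.636), and without replicate 1 it was -2.04 (adjusted p = 7.3e-05). Leaving out either of them also let the MM.1S and MM.1R changes pass (adjusted p = 0.0287 and 0.00704).

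On 223196_s_at the SESN2 values in MM.1S were 84.1 and 109 after coculture, against 17.9 and 26.8 alone. In MM.1R they were 176 and 165 after coculture, against 92.2 and 37.6 alone, and in INA-6 171 and 187 after coculture, against 21.95 and 18.5 alone. In a fit over all tested probe sets this second one rose in each line, by 1.90 (adjusted p = 0.00551), 1.44 (adjusted p = 0.0347) and 2.87 (adjusted p = 0.000408). It was not the representative of the gene, since its mean was lower.

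ASNS, asparagine synthetase, whose promoter element is printed above, rose in the related lines MM.1S and MM.1R. In MM.1S, ASNS read 1298 and 1260 after coculture, against 520 and 582 alone. In MM.1R it read 1344 and 1332 after coculture, against 612 and 607 alone. INA-6 gave 2247 and 2340 after coculture, against 2005 and 1404 alone. The cocultured arrays lay above those kept alone in all 3 lines, and INA-6 alone already lay above both cocultured MM.1 lines. The log2 change was 1.21 in MM.1S (adjusted p = 0.00179), 1.13 in MM.1R (adjusted p = 0.00534) and 0.45 in INA-6 (adjusted p = 0.0783). The effect in INA-6 minus the mean effect of the MM.1 lines was -0.72 ± 0.23 (adjusted p = 0.0396), with -0.46 without replicate 1 of INA-6 alone and -0.98 without its replicate 2, both called. In the fit over all probe sets it did not pass (adjusted p = 0.0541). Leaving out replicate 1 of INA-6 alone gave 0.71 in INA-6 (adjusted p = 0.000849) and leaving out replicate 2 gave 0.19, so the 2 arrays of that group placed the INA-6 value on either side of the threshold.

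The serine synthesis enzymes PHGDH and PSAT1, which turn a glycolytic intermediate into phosphoserine, had higher intensities in INA-6 kept alone than in the MM.1 lines kept alone. PHGDH in MM.1S read 562 and 556 after coculture, against 206 and 209 alone. In MM.1R it read 735 and 680.2 after coculture, against 414 and 357 alone. In INA-6 it read 1656 and 1826 after coculture, against 1548 and 1988 alone, and the ranges overlapped. PHGDH rose in MM.1S (1.41, adjusted p = 0.000551) and in MM.1R (0.87, adjusted p = 0.0119), and its INA-6 change was -0.01 (adjusted p = 0.957), with 0.13 after quantile normalization. The MM.1R call was lost without MM.1R alone replicate 2 (adjusted p = 0.1001), MM.1R coculture replicate 1 (0.0955) or MM.1R coculture replicate 2 (0.0598). On the deposited scale PHGDH was the 1 member for which the 3 line effects differed by the F-test (adjusted p = 0.00769), where 35.7% of all genes differed. After quantile normalization the F-test called 3 members, and the share of all genes in that run is not given. On the deposited scale the INA-6 effect of PHGDH minus that of the MM.1 lines was -1.15 ± 0.21 (adjusted p = 0.00389).

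PSAT1, on probe set 223062_s_at, passed the test in no line. In MM.1S it read 831 and 795 after coculture, against 455 and 494 alone, and in MM.1R 908 and 1001 after coculture, against 590 and 613 alone. INA-6 read 1527 and 1533 after coculture, against 2450 and 1132 alone. The log2 changes were 0.77 (adjusted p = 0.0993), 0.66 (adjusted p = 0.226) and -0.12 (adjusted p = 0.764). Groups did not overlap in the MM.1 lines, and in INA-6 the 2 arrays kept alone enclosed both cocultured ones. When either array of INA-6 alone was left out, the unchanged MM.1S and MM.1R values passed (adjusted p = 0.000409 and 0.0016). The INA-6 change was 0.43 without replicate 1 of that group (adjusted p = 0.0106) and -0.68 without replicate 2 (adjusted p = 0.00181). On the dimmer 220892_s_at the 2 INA-6 arrays kept alone read 302 and 399, against 97.2 and 69.9 after coculture, a log2 change of -2.01 (adjusted p = 0.000793), and its MM.1S and MM.1R changes were 0.09 and 0.43.

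SLC7A11, the cystine import chain of the antiporter that supplies cysteine for glutathione, rose in the MM.1 lines on its brightest probe set. In MM.1S, 209921_at read 232 and 223 after coculture, against 119 and 86.6 alone. In MM.1R it read 311 and 282 after coculture, against 89.0 and 104 alone. In INA-6 it read 417 and 365 after coculture, against 420 and 210 alone, with overlap. The changes were 1.12 (adjusted p = 0.0255), 1.57 (adjusted p = 0.0113) and 0.39 (adjusted p = 0.329). The INA-6 change was -0.28 after quantile normalization, 0.88 without replicate 1 of INA-6 alone and -0.10 without its replicate 2. Another probe set, 207528_s_at, fell in MM.1S (-1.75, adjusted p = 0.00327) and in INA-6 (-0.94, adjusted p = 0.0338), with intensities of at most 36.8 on every array. It lay above the array median on 5 arrays, all of cells kept alone, and entered the test only through them. The third, 217678_at, gave 1.15 in MM.1S (adjusted p = 0.00665), 0.79 in MM.1R (adjusted p = 0.0589) and 0.36 in INA-6 (adjusted p = 0.240). With the mean of the 3 probe sets the MM.1S and MM.1R calls were lost (adjusted p = 0.463 and 0.0747). They were also lost when single arrays were left out, in MM.1S without coculture replicate 1 or 2 or alone replicate 2 (adjusted p = 0.115, 0.101 and 0.137). In MM.1R this held for each of its 4 arrays, with adjusted p between 0.0545 and 0.0822.

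**Figure D2:**
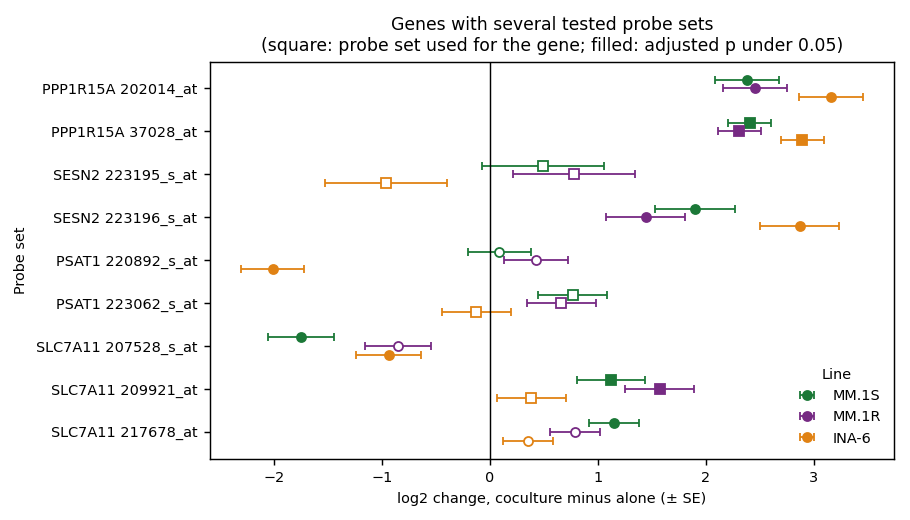
The log2 change after coculture (coculture minus alone, ± SE of the probe set fit) for genes with several tested probe sets, by line; squares are the probe set that stands for the gene and filled points passed the test. Both PPP1R15A probe sets lie above 2 in every line, whereas the SESN2 probe sets have opposite signs in INA-6, and 1 of the 3 SLC7A11 probe sets lies below 0 where the other two lie above it in every line.

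**Figure D3:**
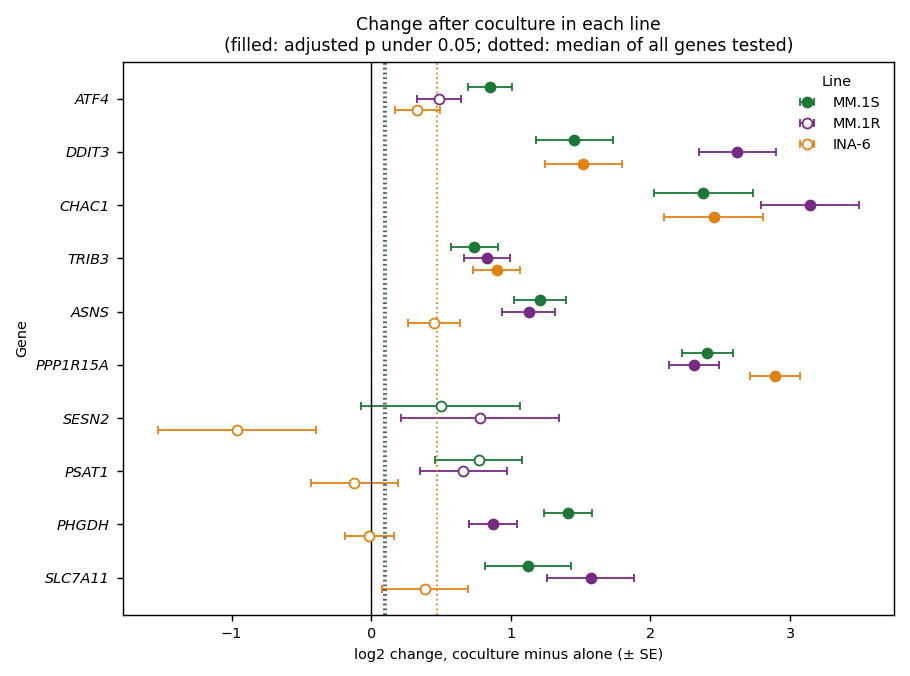
The log2 change of each gene after coculture (coculture minus alone, ± SE) in the 3 lines; filled points passed the test and dotted lines are the medians of all genes tested, 0.11 in MM.1S, 0.09 in MM.1R and 0.47 in INA-6. DDIT3, CHAC1, TRIB3 and PPP1R15A are filled in each line; PHGDH and ASNS are filled in MM.1S and MM.1R and open in INA-6.

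The members showed 3 orders of level. In DDIT3, CHAC1, PPP1R15A, TRIB3 and ATF4 the 3 coculture groups held the 3 highest means, with MM.1R highest, then INA-6, then MM.1S. Of neighbours in that order the MM.1R and INA-6 coculture values of DDIT3 overlapped, while those of PPP1R15A did not. In SESN2, PSAT1 and PHGDH the highest means were INA-6 alone and then INA-6 after coculture, which overlapped for each of the 3. ASNS and SLC7A11 were highest in cocultured INA-6, with INA-6 alone second, above both cocultured MM.1 lines, although for SLC7A11 the INA-6 groups overlapped each other and INA-6 alone overlapped cocultured MM.1R. For ASNS no neighbours in the order overlapped.

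Between the lines kept alone, INA-6 stood above the average of the MM.1 lines in 6 members: PHGDH by 2.61 (adjusted p = 4e-06), SESN2 by 2.09 (adjusted p = 0.00723), PSAT1 by 1.63 (adjusted p = 0.0012), SLC7A11 by 1.54 (adjusted p = 0.0016), ASNS by 1.53 (adjusted p = 0.000106) and DDIT3 by 0.85 (adjusted p = 0.0159), in log2 units. PPP1R15A was lower in INA-6 by -0.66 (adjusted p = 0.00771). Over all genes 21.4% were higher and 34.1% lower. Leaving out replicate 1 or 2 of INA-6 alone moved several of these differences. They were then 3.16 or 1.02 for SESN2, 1.08 or 2.19 for PSAT1 and 1.05 or 2.03 for SLC7A11. DDIT3 gave 0.45 without replicate 1 (adjusted p = 0.0622) and 1.26 without replicate 2, while PHGDH gave 2.79 or 2.43 and ASNS 1.27 or 1.78. For the second SESN2 probe set this difference was -0.73 and did not pass in the limma fit over all probe sets (adjusted p = 0.0890). The remaining 3 members, ATF4, CHAC1 and TRIB3, did not pass, although ATF4 did without replicate 1 (0.43, adjusted p = 0.0123). The ACTB ratio given above was 5.51 in INA-6 alone against 22.4 in MM.1S alone and 31.4 in MM.1R alone. MM.1R alone exceeded MM.1S alone in PHGDH (0.88, adjusted p = 0.0189) and PPP1R15A (0.70, adjusted p = 0.0498), with 7.93% of all genes higher and 1.67% lower. The PPP1R15A value lay at the threshold. With single arrays left out, the count of members called here lay between 0 and 5.

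The genes nearest in pattern over the 6 group means, by root mean square difference of centred log2 values, were PFDN5 (0.0757), RBBP7 (0.0769) and PHF13 (0.0797) for ATF4, where the median over all genes was 0.678. APLP1 (0.153), CAPG (0.175) and NCKAP1 (0.220) were nearest to CHAC1, with a median of 1.43. ASNS was nearest to FHIT (0.0977), NINJ2-AS1 (0.112) and PIGF (0.114), with a median of 0.929. GSTM3 (0.0652), TMEM60 (0.141) and ASNS (0.143) were nearest to SLC7A11, with a median of 0.942.

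Other genes of the pathway came from lists chosen by function, with earlier results of these data known. List counts are therefore set beside the shares of all genes as a description only. Among the eIF2α kinases, phosphatase and ATF4 partners, 4 of 14 rose and 2 fell in MM.1S, 4 rose and 1 fell in MM.1R, and 9 rose and 0 fell in INA-6. Beside the 23.9%, 13.3% and 39.1% of all genes that rose in these lines, the MM.1S share of the list was near the background. ATF3, a stress-induced repressor of the CREB family, rose 6.69-fold in MM.1S, 9.83-fold in MM.1R and 8.43-fold in INA-6, and passed over the lines (log2 change 3.04, adjusted p = 0.00861), although its second probe set gave -0.08. CEBPB, a C/EBP partner of ATF4, also passed over the lines (2.04, adjusted p = 0.0403), but not after quantile normalization (1.72, adjusted p = 0.0854) or in the fit over all probe sets (adjusted p = 0.0738). EIF2AK2 (PKR), the eIF2α kinase that senses double-stranded RNA, rose in each line by 1.89, 0.84 and 2.78, but 2 further probe sets gave -1.38 and -0.03 over the lines, and its MM.1R call was lost after quantile normalization (adjusted p = 0.0511).

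Amino acid transporters also had unlike counts by line, with 5 of 11 higher and 0 lower in MM.1S, 4 higher and 0 lower in MM.1R, and 0 higher and 5 lower in INA-6. Of all genes 23.9%, 13.3% and 39.1% were higher and 8.33%, 2.76% and 13.1% lower in these lines. At an unadjusted p below 0.05 the limma fits had 1 lower in MM.1S, 0 lower in MM.1R and 0 higher in INA-6. SLC1A5, a glutamine importer, rose in MM.1S (2.61) and MM.1R (1.61) and fell in INA-6 (-0.83, adjusted p = 0.0311). The effect of INA-6 minus the mean of the MM.1 lines was -2.94 (adjusted p = 0.00041). SLC7A3, an arginine and lysine importer, changed by -1.40 over the lines (adjusted p = 0.137) and fell in INA-6 (-2.09, adjusted p = 0.0221). INA-6 alone had the highest SLC1A5 mean of all groups, 863.6, against 62.99 in MM.1S alone and 136 in MM.1R alone.

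In serine, one-carbon, proline, alanine and cysteine metabolism, 2 of 13 rose in MM.1S, 4 in MM.1R and 7 in INA-6, and 0 fell in any line; at an unadjusted p below 0.05 in limma, 1 was lower in MM.1S and 0 in the others. All genes rose at 23.9%, 13.3% and 39.1%, so the list lay below that share in MM.1S. GOT1, aspartate aminotransferase of the cytosol, rose by 1.78, 1.09 and 0.60, the last of which was -0.08 after quantile normalization and was not called with centred arrays (adjusted p = 0.0611). CTH, which makes cysteine from cystathionine, rose in INA-6 (2.36, adjusted p = 0.00349), with 0.66 in MM.1S and 1.58 in MM.1R (adjusted p = 0.330 and 0.0557). ALDH1L2, a mitochondrial folate enzyme, rose in INA-6 (3.51, adjusted p = 0.00123), but 2 other probe sets gave -0.78 and -1.15 over the lines.

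Of 17 cytosolic tRNA synthetases, which load amino acids onto tRNA, 7 rose in MM.1S, 7 in MM.1R and 10 in INA-6, and 1 fell in INA-6. The shares of all genes that rose were 23.9%, 13.3% and 39.1% in these lines. AARS1, the alanine enzyme, rose by 1.42, 0.86 and 1.10, SARS1, the serine enzyme, by 1.35, 1.0 and 0.82, and CARS1, the cysteine enzyme, by 1.01, 0.94 and 0.62 in MM.1S, MM.1R and INA-6. A further CARS1 probe set gave -0.98 in INA-6. A second SARS1 probe set gave -0.20 in MM.1S, -0.18 in MM.1R and 2.87 in INA-6.

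Among 17 other ATF4 targets, 13 rose in MM.1S, 12 in MM.1R and 11 in INA-6, and 0 fell, also at an unadjusted p below 0.05 in limma; 9 rose in each of the 3 lines. The shares of all genes were 23.9%, 13.3% and 39.1%, and 7.29% in each line. DDIT4 (REDD1), an inhibitor of mTORC1, averaged 4464 in cocultured MM.1S against 144 alone, 5128 in cocultured MM.1R against 259 alone and 3783 in cocultured INA-6 against 284 alone, and passed over the lines (4.33, adjusted p = 0.00288). STC2, a secreted glycoprotein of the stress response, averaged 407 in cocultured MM.1S against 9.76 alone, 921 in cocultured MM.1R against 6.04 alone and 902 in cocultured INA-6 against 231 alone (4.46 over the lines, adjusted p = 0.0258). Its values in MM.1S and MM.1R alone lay below the array medians, so the size of its change there depends on the pseudocount. JDP2, an AP-1 repressor named here after its value was seen, also passed over the lines (2.08, adjusted p = 0.0365). After quantile normalization DDIT4 alone of these 3 passed over the lines (adjusted p = 0.00767), against 0.0651 for STC2 and 0.09 for JDP2, and in the fit over all probe sets STC2 had an adjusted p of 0.056. CDKN1A, the cell cycle inhibitor p21, rose by 1.68, 1.76 and 4.36, and its 2.602 over the lines did not pass (adjusted p = 0.0602). How much of these values came from HS-5 cells was not tested. Of 23 stromal markers, 13 rose over the lines and 0 fell, against 3.28% and 0.106% of all genes. MMP1 and COL6A2 had the largest of these rises, 8.28 and 7.15. Other stromal markers did not rise: COL1A1 fell in INA-6 (-1.76, limma adjusted p = 0.0264), and TAGLN gave -0.85 over the lines (adjusted p = 0.264).

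The ATF6 and XBP1 branch, which makes chaperones and the machinery that degrades misfolded proteins, had unlike counts by line. In MM.1S, 11 of 16 genes rose and 1 fell, in MM.1R 6 rose and 1 fell, and in INA-6 2 rose and 11 fell. Of all genes 23.9%, 13.3% and 39.1% rose and 8.33%, 2.76% and 13.1% fell in these lines. The median log2 change of the list was 0.96, 0.55 and -0.78 in the same lines. HSP90B1 (GRP94) was the 1 gene of this list that fell in each line, by -1.05, -0.85 and -1.25. EDEM1, which directs glycoproteins to degradation, rose in MM.1S (1.97) and MM.1R (1.603) and gave 0.21 in INA-6 (adjusted p = 0.390). Of 12 myeloma markers, 9 rose in MM.1S, 5 in MM.1R and 4 in INA-6, and 5 fell in INA-6, where the median was -0.17. Beside the 39.1% of all genes that rose in INA-6, the 4 markers that rose there were near the background. The B lineage factors IRF4 and POU2AF1 rose in each line, by 2.15, 0.89 and 1.03 for IRF4 and by 1.08, 0.51 and 0.74 for POU2AF1. A second IRF4 probe set gave -0.25, 0.03 and 0.11, and the IRF4 call in MM.1R was lost with arrays centred on their medians (adjusted p = 0.0783). After quantile normalization the POU2AF1 values were 0.31 in MM.1S and 0.18 in MM.1R (adjusted p = 0.115 and 0.474), and with centred arrays its MM.1R call was also lost (adjusted p = 0.155).

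**Figure D4:**
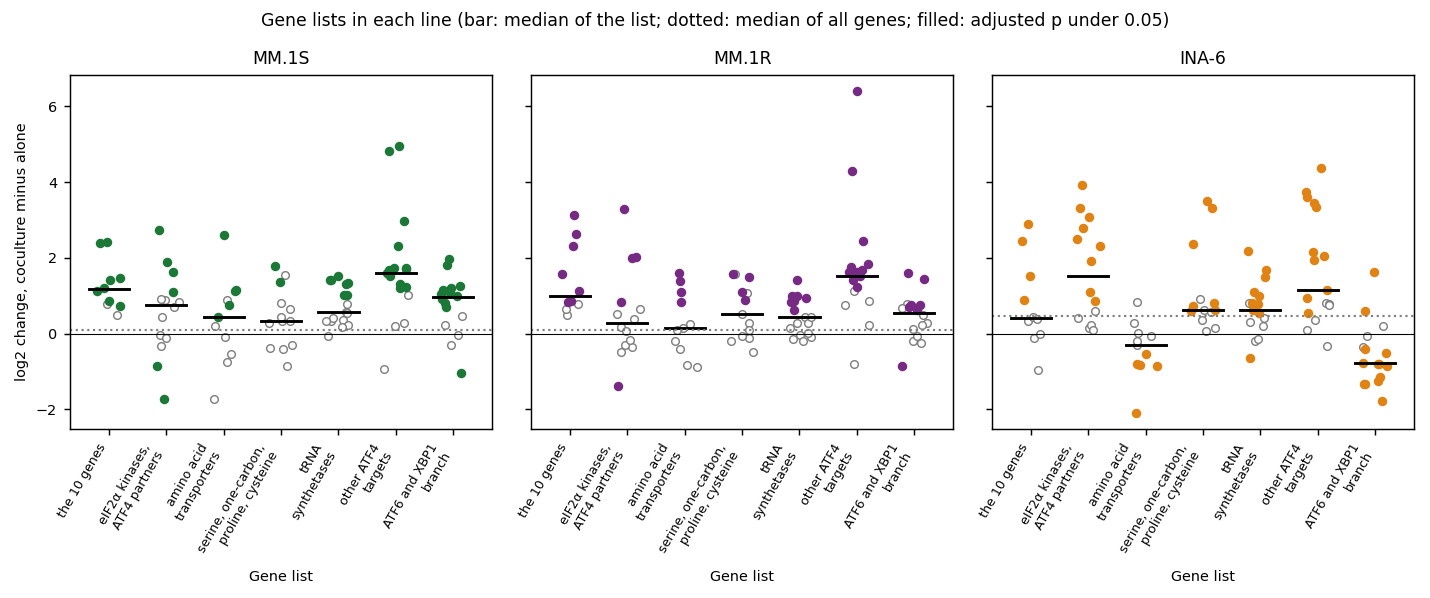
The log2 change after coculture (coculture minus alone) of each gene, by list and line; bars are list medians, dotted lines the median of all genes tested and filled points passed the test. The amino acid transporters and the ATF6 and XBP1 branch lie mostly below 0 in INA-6 (medians -0.30 and -0.78) and mostly above 0 in MM.1S (medians 0.45 and 0.96, with -0.01 and 0.52 after quantile normalization), while 16 of 17 other ATF4 targets lie above 0 in each line.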

How the data were processed

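The series holds 12 Affymetrix U133 Plus 2.0 arrays, and its deposited table gives 1 linear intensity per probe set and array. Per the submitters' processing notes the authors used MAS5, while the design text describes dChip with averaging of duplicates; the table holds all 12 arrays apart, so which was used is not settled. Array medians lay between 19.78 and 24.09, and the number of arrays limits the precision. Of 54675 probe sets, 1 with a missing value and 62 controls were left out; 41097 had 1 symbol, 1801 several and 11776 none. No column was left unused.

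From these values log2(intensity + 5) was computed and fitted with limma 3.58.1 in R 4.3.3. Of several tested probe sets, the one with the highest mean stood for the gene. The effect common to the lines used the 6 group averages with line as a block (2 residual degrees of freedom). Line effects, their differences and the lines kept alone used all 12 arrays and 6 group means (6 residual degrees of freedom). All tests were two-sided. In simulated data of 15052 genes the common fit recovered 60% of 50 genes with a log2 change of 2 and 0% of those with 1. For MM.1S the recovery was 56% and 18%. Recovery of genes whose coculture effect differs in size between the lines was not tested. By the F-test, 35.7% of all genes measured here differed in that way.

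The members and the gene lists were chosen with earlier results of these data known. Besides the members, the genes named were the up to 3 largest rises and falls of each list among genes called the same way in every line, or the 2 largest common changes where fewer than 2 were called, and the 3 nearest patterns of ATF4, CHAC1, ASNS and SLC7A11. Alternatives changed the pseudocount, the scaling, the filter, the choice of probe set, the prior and the arrays used. Deviations of same-numbered arrays had mixed signs (correlations of -0.529 to 0.581 over 15 pairs, 6 above 0.1), so numbers were not taken to pair them.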

Additional observations from a re-analysis of the deposited data

Results flagged for a closer look

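The coculture effect on PHGDH differed between the lines by the limma F-test (adjusted p = 0.007686), and its effect in INA-6, less the average of both MM.1 lines, was -1.153 in log2 units. The corresponding difference for ASNS was -0.7197, with -0.46 without replicate 1 of INA-6 alone and -0.98 without replicate 2. With all arrays kept, the deposited scale and the probe set that stands for each gene, no other member passed a limma test of difference between the lines in the fit of the Results. There the contrast of MM.1R with MM.1S passed for none (adjusted p = 0.176 to 0.964). In the fit over all probe sets, 220892_s_at of PSAT1 passed the F-test (adjusted p = 0.00519), with -2.27 for INA-6 less the MM.1 lines. Other settings called further members, as given below.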

How the results depend on the processing

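Members called numbered 2 over the lines, 8 in MM.1S, 7 in MM.1R, 4 in INA-6, 1 in the F-test, 2 between MM.1R and MM.1S alone, 7 between INA-6 and the MM.1 lines alone and 4 in each line, a count chosen after seeing the data. With the replicate block, or with the 12 arrays not averaged, 8 members passed over the lines, but both runs count the technical duplicates as replicates and so overstate replication. Without the INA-6 arrays 6 passed, on the 2 lines of the same origin only. The replicate block also gave 1 between MM.1R and MM.1S alone, as did a pseudocount of 1, quantile normalization, no filter, the mean of the probe sets and the fit over all probe sets. The F-test called 3 members after quantile normalization, 3 with an intensity trend, and 2 with the mean of, or the fit over, all probe sets. That last fit called 7 in INA-6, where PSAT1 and SLC7A11 were called through probe sets that fell (-2.01 and -0.94). For the alternative runs in this paragraph the shares of all genes called are not given. Their counts of members therefore cannot be set against a background, and a higher count need not mean a stronger result. With single arrays left out the counts lay between 2 and 3 over the lines, 6 and 10 in MM.1S, 4 and 10 in MM.1R, 4 and 8 in INA-6, 7 and 8 between INA-6 and the MM.1 lines alone, 3 and 7 in each line, 1 and 5 in the F-test and 0 and 5 between MM.1R and MM.1S alone.

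Signs turned for SESN2 over the lines (-0.1951 after quantile normalization; -0.2536 to 0.4619 with single arrays left out) and in INA-6 (0.9533 with the mean of the probe sets; -2.036 to 0.1106). For PSAT1 they turned over the lines (-0.03055 with the mean of the probe sets) and in INA-6 (-0.6775 to 0.4324). In INA-6 they also turned for PHGDH (0.133 after quantile normalization; -0.1928 to 0.1667) and SLC7A11 (-0.2757 after quantile normalization, -0.06476 with the mean of the probe sets; -0.104 to 0.8761). The causes were not tested. Of 880 recomputed member changes, 802 kept direction and side of the threshold. Many of these runs, such as the fit over all probe sets or those without an array of another line, keep the log2 change of a line as it was. Its direction could not turn there, so 802 overstates how stable the directions were. CHAC1 and PPP1R15A kept their calls in every alternative run, over the lines and in each line, and DDIT3 in each line.

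Limits are the technical duplicates, the shared origin of MM.1S and MM.1R, the stromal markers in sorted cells and INA-6 alone, whose 2 arrays differed more than those of any other group. Signal over background limits CHAC1 in cells kept alone.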
